A study of Homo sapiens with 12 samples.

Results

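The interferon-stimulated genes analysed here are 36 genes chosen by name: antiviral effectors, sensors of viral RNA, and the STAT and IRF factors that switch such genes on. All 36 were listed, out of 13554 genes in the table of the knockdown and 13583 genes in the table of the overexpression. RNA had been sequenced from SW480, a human colon adenocarcinoma cell line, in 12 libraries, 3 in each of 4 groups. The groups were cells with a short hairpin RNA against GPD1L (shGPD1L), cells with a control hairpin (shNC), cells overexpressing GPD1L (OE) and cells with the vector (Vector). GPD1L encodes glycerol-3-phosphate dehydrogenase 1-like, an enzyme related to the cytosolic enzyme of the glycerol phosphate shuttle. All 4 groups were SW480 cells, and no interferon or other stimulus is named in the labels. The labels do not say how many hairpins, clones or cultures stand behind a group, so an effect of GPD1L and an effect of the line cannot be told apart. The p-values measure the spread between libraries, which may be technical.

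Interferons are secreted signals of viral infection. Type I and type III interferons act through the kinases JAK1 and TYK2, which phosphorylate STAT factors. STAT2 in its active complex joins IRF9 to bind the interferon-stimulated response element (ISRE) in promoters. Type II interferon acts mainly through the gamma-activated site (GAS). The induced genes block viral entry, RNA and protein synthesis and release, and many are also made at a basal level in unstimulated epithelial tumour cells.

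Values are FPKM, a count of sequenced fragments divided by transcript length and by the size of the library. GPD1L itself was at 1.55, 1.26 and 2.23 FPKM in shGPD1L cells, against 8.68, 8.01 and 9.10 FPKM in shNC cells, and at 22.3, 22.8 and 22.1 FPKM in OE cells, against 10.7, 10.2 and 11.1 FPKM in Vector cells. Both changes passed the test (log2 change -1.85, adjusted p = 0.00675, and 1.01, adjusted p = 4.74e-05). Sums over all listed genes ran from 421714 to 444794 FPKM per library, and the sequencing depth is unknown. On the first principal component of the knockdown table shGPD1L replicate 3 stood at 29.1 and the other 5 libraries between -12.1 and 0.319. Of 12 leukocyte markers only CD14 and CD68 had values here, and their summed level was 20.0 to 28.7 FPKM in shGPD1L and 27.8 to 32.0 FPKM in shNC cells, and 18.4 to 19.5 FPKM in OE and 17.3 to 19.7 FPKM in Vector cells. CD68 made up most of these sums. In OE cells CD14 fell (log2 change -0.64, adjusted p = 0.00803), while CD68 had a log2 change of 0.15 that did not pass (adjusted p = 0.145). Of 10 stromal and endothelial markers 2 had values, with sums of 1.29 to 1.63 FPKM in shGPD1L and 1.15 to 1.55 FPKM in shNC cells, and of 1.19 to 1.37 FPKM in OE and 2.06 to 2.31 FPKM in Vector cells. The 8 epithelial markers listed in the knockdown table summed to 4220 to 4490 FPKM in shGPD1L and 5080 to 5440 FPKM in shNC cells. The 10 listed in the overexpression table summed to 4150 to 4280 FPKM in OE and 3800 to 3910 FPKM in Vector cells. Single epithelial markers went both ways in OE cells: of 8 tested the keratins KRT8, KRT18 and KRT19 rose (log2 changes 0.15, 0.21 and 0.30). The other 5 fell, CDX1, CDX2, VIL1, CDH1 and EPCAM (log2 changes -0.70, -0.59, -0.52, -0.31 and -0.21). In shGPD1L cells 0 of these 8 passed, with 4 at an unadjusted p under 0.05, all lower. Over all genes 10.3% were lower and 6.04% higher at that unadjusted threshold. The part of these markers in the results below was not tested.

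The promoters of the members that fell in either comparison are shown first, because the interferon response is read through short promoter elements. RefSeq promoter windows (GRCh38.p14, 250 bases before to 50 bases after a gene start) were found for 33 of the 36 members. They were searched on both strands for the ISRE core, GAAA followed after any 2 bases by a second GAAA, and for the GAS core, TTCNNNGAA, which reads the same on both strands. At least 1 ISRE core lay in a window of 22 of the 33 members (66.7%), against 4.38% of 27305 genes with a window. A GAS core lay in a window of 12 of the 33 (36.4%), against 9.38% of those genes. Of the 14 members with a window that fell in OE cells 9 held an ISRE core, and of the other 19 members with a window 13 did. These genes were picked as known interferon targets, so these shares are a description, and a match is not evidence of binding.

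Stretches around the cores are printed for 9 of these members, 5′ to 3′ on the strand of the gene, with the core letters in capitals. BST2 lies at chr19:17405741-17405770 (minus strand), ISG15 at chr1:1013354-1013422 (plus), IFI6 at chr1:27672246-27672378 (minus) and IFI27 at chr14:94110598-94110677 (plus). LGALS3BP lies at chr17:78979962-78979991 (minus), IFIT3 at chr10:89327811-89327893 (plus) and OAS3 at chr12:112938301-112938351 (plus). These 7 show the ISRE core, which in IFIT3 and at the first core of IFI27 is read on the opposite strand, as TTTC repeats. IFI35, at chr17:43006752-43006781 (plus), and IRF1, at chr5:132490859-132490927 (minus), show the GAS core. The 30 printed bases of BST2, of LGALS3BP and of IFI35 all lie within exons annotated by GENCODE. Those of BST2 lie outside the annotated span of BST2, so the exons there belong to another gene. Those of LGALS3BP and IFI35 lie within the span of their own gene, and the gene of the exons was not recorded. The gene starts used for the windows are those of RefSeq.
BST2: tcctttctggGAAACTGAAACTGAAAacct
ISG15: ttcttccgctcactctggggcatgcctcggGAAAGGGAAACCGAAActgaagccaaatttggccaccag
IFI6: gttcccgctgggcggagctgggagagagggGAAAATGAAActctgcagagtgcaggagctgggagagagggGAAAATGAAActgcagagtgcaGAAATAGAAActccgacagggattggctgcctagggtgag
IFI27: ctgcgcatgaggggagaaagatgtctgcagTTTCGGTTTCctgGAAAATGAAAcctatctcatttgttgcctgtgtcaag
LGALS3BP: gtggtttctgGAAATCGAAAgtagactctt
IFIT3: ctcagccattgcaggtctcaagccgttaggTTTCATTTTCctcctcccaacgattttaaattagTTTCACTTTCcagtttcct
OAS3: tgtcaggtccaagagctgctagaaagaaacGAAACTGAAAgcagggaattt
IFI35: aggcagggatTTCACGGAAatgaaagtgga
IRF1: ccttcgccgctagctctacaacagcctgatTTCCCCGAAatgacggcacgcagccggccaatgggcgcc
BST2 and ISG15 each carried 2 ISRE cores that share bases, starting at -130 and -124 in BST2 and at -113 and -107 in ISG15, counted from the gene start. IFI6 carried 3 separate cores, starting at -156, -115 and -93. In BST2 and IFI27 a GAS core, starting at -136 and -101, overlaps an ISRE core.

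Interferon-stimulated genes were lower in cells overexpressing GPD1L. Of the 36 members 16 fell (44.4%) and 0 rose, by limma on log2(FPKM + 1) with p-values adjusted over all 12208 genes tested. Over all those genes 10.3% fell and 12.2% rose. The members were chosen with earlier results of these data known, so these shares are a description. At an unadjusted p under 0.05, 20 members were lower and 0 higher, against 16.5% and 21.4% of all genes. Every OE library was below every Vector library in 19 of the 36 members, against 17.6% of all genes, and every OE library was above every Vector library in 0 members, against 24.2% of all genes. The median log2 change of the members was -0.215, against 0.0243 over all genes, and 22 of the 36 lay among the lowest 25% of all changes. The members that fell lost between 14.6% and 49.0% of their mean FPKM. The share of rising genes among all calls was 54.2%, 71.5% with equal library totals and 46.1% with median-of-ratios scaling, while no member rose under either. In bulk RNA, fewer cells with a high level and less RNA per cell cannot be told apart.

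**Figure D1:**
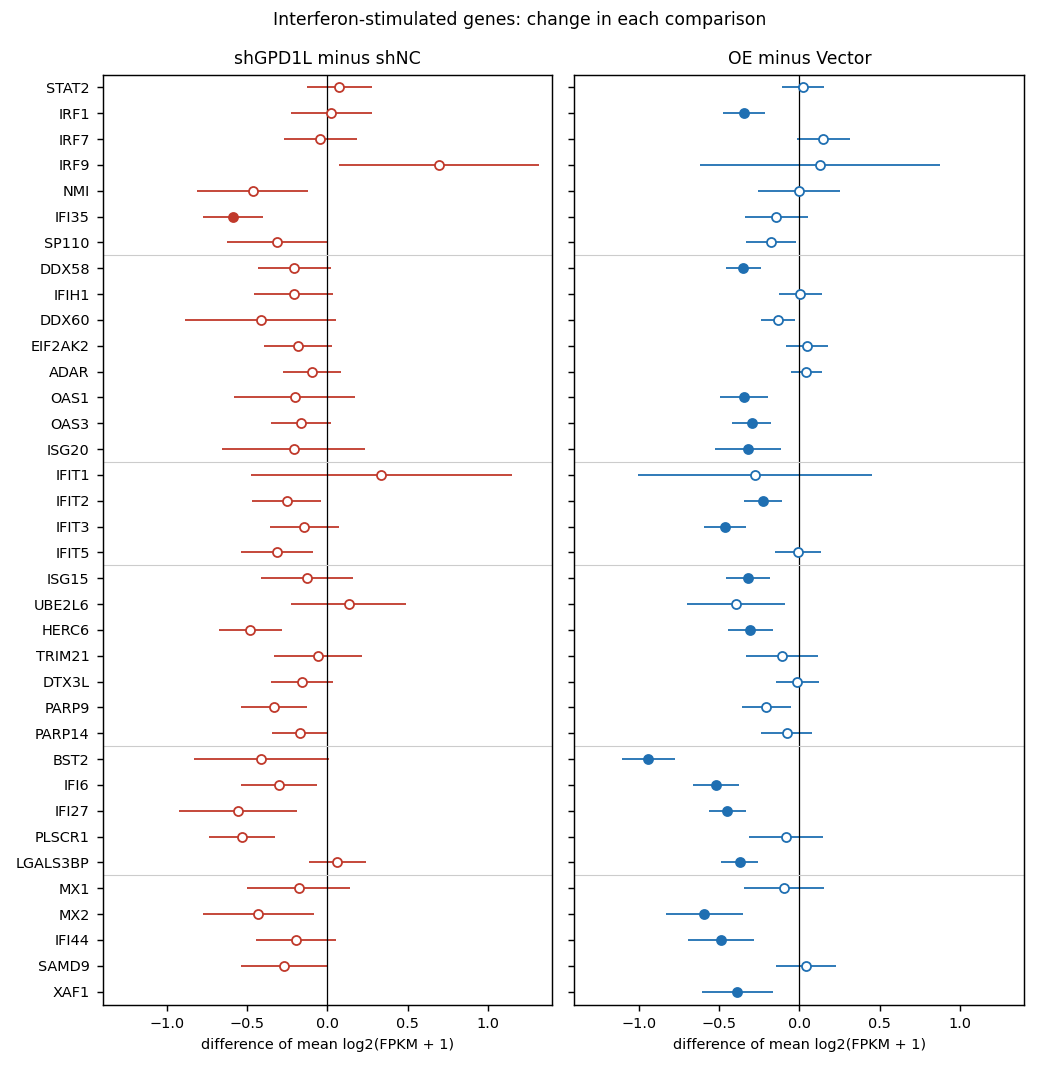
Log2 change of the 36 interferon-stimulated genes, in FPKM + 1, for shGPD1L minus shNC on the left (35 genes tested) and OE minus Vector on the right, ordered by role. Points are differences of group means, bars their 95% confidence intervals, and filled points had an adjusted p under 0.05: 1 in the knockdown and 16 in the overexpression, all below 0.

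In the knockdown 29 of 35 estimates were below 0, against 58.4% of all genes, but nearly all missed the threshold. Of the 35 members tested 1 fell, IFI35, and 0 rose, against 0.477% and 0.115% of 12156 genes. XAF1 was not tested, since its mean was under 1 FPKM. At an unadjusted p under 0.05, 12 members were lower and 1 was higher, against 10.3% and 6.04% of all genes. Every shGPD1L library was below every shNC library in 16 of the 35, against 15.1% of all genes. The median log2 change was -0.204 in the members and -0.0356 over all genes. Without shGPD1L replicate 3, 5 members passed the test as lower and 0 as higher, against 3.2% and 1.8% of 12159 genes: DDX60, OAS1, PLSCR1, HERC6 and IFI35. Without any other 1 of the 6 libraries, 0 members passed. Of all genes, 8 passed without shGPD1L replicate 1 and 7 without shGPD1L replicate 2. Without shNC replicate 1, 2 or 3 there were 1, 0 and 0. Estimates were below 0 in both comparisons for 24 of the 35 members. Of all genes 58.4% were below 0 in the knockdown and 45% in the overexpression, and the share below 0 in both was not computed. With 1 member called in the knockdown at most 1 could be called in both, and 0 were. GPD1L itself moved in opposite directions in the comparisons.

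**Figure D2:**
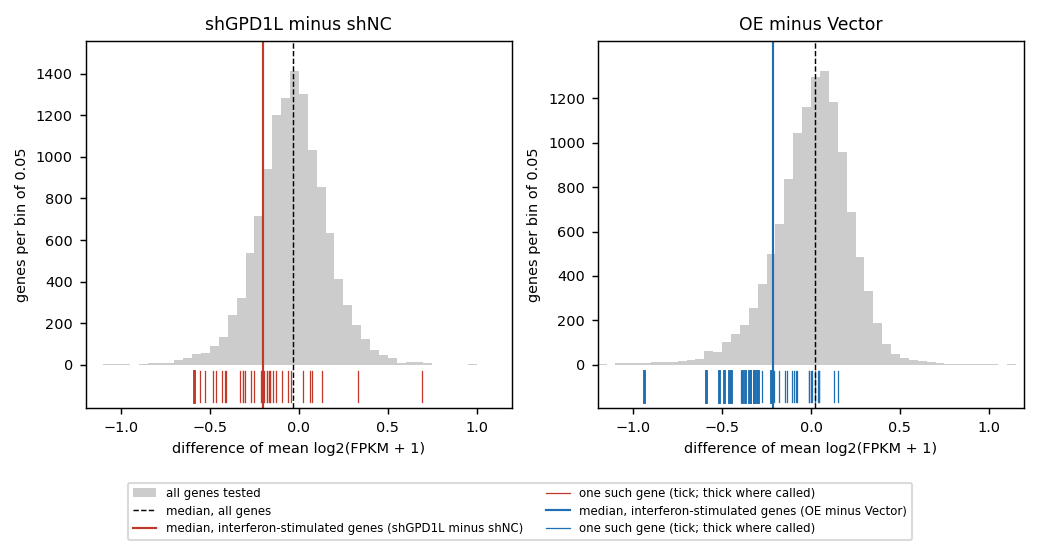
Histograms of the difference of mean log2(FPKM + 1) over all genes tested in the knockdown (left) and the overexpression (right), with 14 genes outside the axis in each. Ticks below are the interferon-stimulated genes, thick where called, and their medians of -0.204 and -0.215 (coloured lines) lie below the medians of all genes, -0.0356 and 0.0243 (dashed lines).

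The membrane and secreted effectors held BST2, whose change in OE cells was the largest of the 36 members. Of these 5 genes 4 fell in OE cells, against 10.3% of all genes, and PLSCR1 did not pass the test there. BST2 (ENSG00000130303, chr19:17402939-17405648, minus strand), tetherin, holds budding enveloped viruses at the cell surface. It was at 17.8, 21.2 and 18.0 FPKM in OE cells, against 38.3, 35.5 and 37.8 FPKM in Vector cells. The OE libraries stood well below all Vector libraries (means 19.0 ± 1.92 and 37.2 ± 1.52, SD, n = 3 each). On the log2 scale BST2 changed by -0.94 (SE 0.0721, adjusted p = 0.000242). Counted from the lowest change, BST2 ranked 39 of the 12208 genes tested. In the knockdown BST2 was at 7.55, 4.94 and 4.02 FPKM in shGPD1L cells, against 7.25, 7.07 and 8.01 FPKM in shNC cells, and replicate 1 of shGPD1L overlapped the shNC libraries (log2 change -0.41, adjusted p = 0.315).

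IFI6, a small hydrophobic protein that limits flavivirus replication at the endoplasmic reticulum, was at 152, 172 and 172 FPKM in OE cells, against 239, 251 and 222 FPKM in Vector cells. The groups were fully apart (log2 change -0.52, SE 0.0637, adjusted p = 0.00163). In shGPD1L cells it was at 87.8, 101 and 84.9 FPKM, against 114, 102 and 122 FPKM in shNC cells, where the groups just failed to touch (log2 change -0.30, adjusted p = 0.217). IFI27, a related protein of mitochondria and nuclear membrane, was at 161, 181 and 169 FPKM in OE cells, against 238, 235 and 225 FPKM in Vector cells. All OE libraries were lower (log2 change -0.45, adjusted p = 0.00117). In the knockdown IFI27 was at 70.9, 84.2 and 68.6 FPKM in shGPD1L cells, against 120, 85.2 and 129 FPKM in shNC cells. The low shNC replicate 2 nearly met the shGPD1L libraries, and the log2 change of -0.56 did not pass (adjusted p = 0.170).

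LGALS3BP, a secreted glycoprotein that binds galectins, was at 185, 186 and 191 FPKM in OE cells, against 245, 257 and 227 FPKM in Vector cells. It fell by 22.9% (log2 change -0.37, SE 0.0506, adjusted p = 0.00247), with the groups apart. The shGPD1L cells had it at 203, 216 and 198 FPKM, against 200, 200 and 190 FPKM in shNC cells, where the groups overlapped (log2 change 0.06, 95% interval -0.116 to 0.237). PLSCR1 is a phospholipid scramblase that restricts several viruses. It was at 10.7, 12.8 and 12.6 FPKM in shGPD1L cells, against 17.6, 18.0 and 17.7 FPKM in shNC cells. The groups were far apart, and the log2 change of -0.53 came just short of the threshold (SE 0.0887, adjusted p = 0.0537; 0.0165 without shGPD1L replicate 3). In OE cells PLSCR1 was at 25.6, 24.4 and 29.2 FPKM, against 23.8, 30.8 and 29.7 FPKM in Vector cells, overlapping (log2 change -0.08, 95% interval -0.315 to 0.149).

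**Figure D3:**
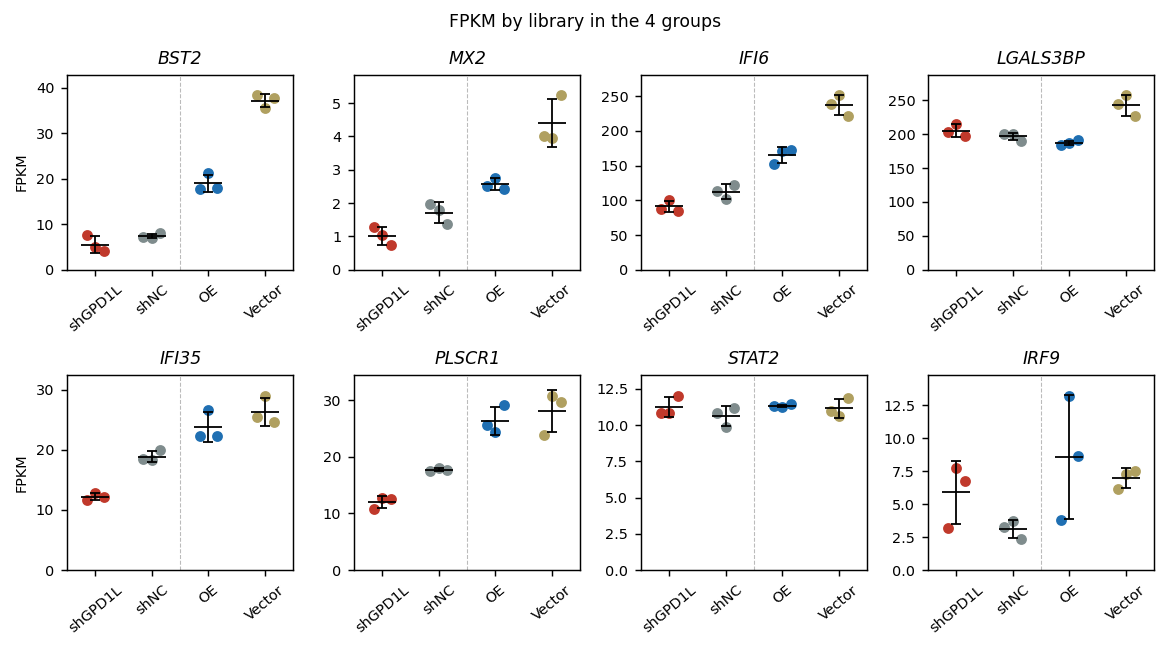
FPKM of 8 interferon-stimulated genes in each library (points) of the shGPD1L, shNC, OE and Vector groups, with the mean and SD (bars). The dashed line separates the tables, which may have been normalized separately; BST2, MX2, IFI6 and LGALS3BP were lower in every OE library than in every Vector library, and IFI35 and PLSCR1 in every shGPD1L library than in every shNC library.

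Among the dynamin-like GTPases and other cytoplasmic effectors, 3 of 5 fell in OE cells and 0 of 4 tested in shGPD1L cells. The shares of all genes that fell were 10.3% and 0.477%. MX2, a GTPase that blocks nuclear import of HIV-1, was at 2.51, 2.76 and 2.43 FPKM in OE cells, against 4.03, 3.95 and 5.23 FPKM in Vector cells. Its groups did not overlap (log2 change -0.59, SE 0.104, adjusted p = 0.00660). In shGPD1L cells it was at 1.28, 1.04 and 0.728 FPKM, against 1.97, 1.79 and 1.37 FPKM in shNC cells, also apart but short of the threshold (log2 change -0.43, adjusted p = 0.225). IFI44, a cytoplasmic protein induced by interferon, was at 15.9, 12.2 and 13.7 FPKM in OE cells, against 21.0, 19.8 and 18.8 FPKM in Vector cells. It was lower in every OE library (log2 change -0.49, adjusted p = 0.00780). In the knockdown it was at 7.41, 8.56 and 8.79 FPKM in shGPD1L cells, against 10.6, 8.49 and 9.78 FPKM in shNC cells, with overlap (log2 change -0.20, adjusted p = 0.405). XAF1, a pro-apoptotic antagonist of XIAP, was at 2.18, 1.66 and 1.78 FPKM in OE cells, against 2.79, 2.55 and 2.91 FPKM in Vector cells. This low gene passed (log2 change -0.39, adjusted p = 0.0245) with no overlap. In the knockdown it was at 1.08, 0.715 and 0.194 FPKM in shGPD1L cells, against 0.711, 0.504 and 0.810 FPKM in shNC cells, too low and too spread to order. The remaining genes of the group, MX1 and SAMD9, changed in neither comparison by the test, with log2 changes of -0.10 and 0.04 in OE and -0.18 and -0.27 in shGPD1L cells.

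Of the IFIT family, proteins with tetratricopeptide repeats that bind foreign RNA, IFIT2 and IFIT3 fell in OE cells. IFIT3 was at 57.9, 57.0 and 57.0 FPKM in OE cells, against 73.5, 79.5 and 85.3 FPKM in Vector cells. The OE libraries were nearly equal and all lower (log2 change -0.46, SE 0.0566, adjusted p = 0.00162). In the knockdown IFIT3 was at 52.9, 45.7 and 56.1 FPKM in shGPD1L cells, against 59.2, 55.6 and 55.9 FPKM in shNC cells, with overlap (log2 change -0.14, adjusted p = 0.491). IFIT2 was at 70.5, 73.9 and 74.3 FPKM in OE cells, against 84.2, 81.2 and 90.8 FPKM in Vector cells, apart but by less (log2 change -0.22, adjusted p = 0.0181). The shGPD1L libraries had it at 56.6, 58.0 and 52.3 FPKM, against 70.2, 59.5 and 70.5 FPKM in shNC cells, apart but short of the threshold (log2 change -0.25, adjusted p = 0.244). IFIT5 had log2 changes of -0.01 in OE and -0.31 in shGPD1L cells, neither called. IFIT1 could not be read at this spread: it was at 86.5, 146 and 147 FPKM in OE cells, against 192, 86.9 and 198 FPKM in Vector cells, and at 68.7, 116 and 146 FPKM in shGPD1L cells, against 66.0, 63.0 and 140 FPKM in shNC cells. Replicates of a group thus differed about as much as the groups, and the interval of its OE change ran from -1.01 to 0.454.

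Of 8 RNA sensors and RNA-acting effectors 4 fell in OE cells and 0 passed in shGPD1L cells, where all 8 estimates were below 0. Over all genes 10.3% fell in OE cells, and 58.4% of estimates were below 0 in shGPD1L cells. DDX58, the sensor RIG-I, was at 23.7, 23.7 and 23.2 FPKM in OE cells, against 30.5, 29.03 and 31.3 FPKM in Vector cells. The separation was clear (log2 change -0.35, SE 0.0476, adjusted p = 0.00247). In shGPD1L cells DDX58 was at 13.7, 13.7 and 16.1 FPKM, against 16.9, 15.5 and 18.2 FPKM in shNC cells, where replicate 3 of shGPD1L overlapped (log2 change -0.21, adjusted p = 0.349). IFIH1, the sensor MDA5, had a log2 change of 0.01 in OE cells (95% interval -0.130 to 0.141). OAS1 and OAS3 make 2′-5′-linked oligoadenylates that activate RNase L. OAS1 was at 40.4, 36.5 and 35.7 FPKM in OE cells, against 44.4, 50.4 and 48.9 FPKM in Vector cells (log2 change -0.34, adjusted p = 0.00889). OAS3 was at 23.7, 25.4 and 23.9 FPKM in OE cells, against 30.4, 28.7 and 31.3 FPKM in Vector cells (log2 change -0.30, adjusted p = 0.00681). Neither gene overlapped between OE and Vector.

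In the knockdown OAS1 was at 19.9, 20.0 and 31.3 FPKM in shGPD1L cells, against 27.3, 26.9 and 26.5 FPKM in shNC cells. Replicates 1 and 2 were below and replicate 3 above all shNC libraries; the log2 change was -0.20 with it (adjusted p = 0.573) and -0.41 without it (adjusted p = 0.0160). DDX60, a helicase that promotes RIG-I signalling, split in the same way, at 10.7, 11.3 and 19.6 FPKM in shGPD1L cells, against 18.6, 16.6 and 19.4 FPKM in shNC cells. Its log2 change was -0.42 with replicate 3 (adjusted p = 0.362) and -0.68 without it (adjusted p = 0.0110). OAS3 was at 24.0, 23.4 and 23.1 FPKM in shGPD1L cells, against 28.5, 26.1 and 24.9 FPKM in shNC cells, all lower but short of the threshold (log2 change -0.16, adjusted p = 0.363). ISG20, an exonuclease of single-stranded RNA, was at 13.4, 15.3 and 17.7 FPKM in OE cells, against 19.2, 19.0 and 20.3 FPKM in Vector cells (log2 change -0.32, adjusted p = 0.0359). Its groups did not overlap, but the OE libraries spread widely. In shGPD1L cells it was at 7.57, 11.6 and 13.9 FPKM, against 13.4, 10.9 and 13.4 FPKM in shNC cells, with overlap (log2 change -0.21, adjusted p = 0.631). The kinase EIF2AK2 (PKR) and the RNA-editing enzyme ADAR had log2 changes of 0.05 and 0.04 in OE and of -0.18 and -0.10 in shGPD1L cells, with no call.

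Of 7 genes of ubiquitin-like and ADP-ribose modification, ISG15 and HERC6 fell in OE cells, against 10.3% of all genes. ISG15, the ubiquitin-like protein that interferon attaches to other proteins, had the highest FPKM of all members: 743, 875 and 839 FPKM in OE cells, against 1015, 1045 and 1000 FPKM in Vector cells. All OE libraries were lower (log2 change -0.32, SE 0.0599, adjusted p = 0.00841). In the knockdown it was at 543, 560 and 682 FPKM in shGPD1L cells, against 689, 569 and 692 FPKM in shNC cells, with overlap (log2 change -0.13, adjusted p = 0.644). HERC6, a ligase that joins ISG15 to targets in mice, was at 8.51, 8.99 and 8.95 FPKM in OE cells, against 10.7, 10.8 and 11.9 FPKM in Vector cells. It fell by 20.9% (log2 change -0.31, adjusted p = 0.0114). The shGPD1L cells had it at 5.95, 5.43 and 5.43 FPKM, against 8.26, 7.83 and 8.54 FPKM in shNC cells. These groups were fully apart too, and the change came just short of the threshold (log2 change -0.48, SE 0.0847, adjusted p = 0.0602; 0.0276 without shGPD1L replicate 3). UBE2L6, the conjugating enzyme of ISG15, had a log2 change of -0.39 in OE cells that did not pass (adjusted p = 0.0646). The ADP-ribosyltransferases PARP9 and PARP14, the PARP9 partner DTX3L and the antibody receptor TRIM21 had log2 changes between -0.21 and -0.01 in OE and between -0.33 and -0.06 in shGPD1L cells, none called.

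Of the 7 transcription factors and their regulators 1 fell in each comparison, IRF1 in OE and IFI35 in shGPD1L cells. Over all genes 10.3% fell in OE and 0.477% in shGPD1L cells, so 1 of 7 in OE cells is near the share of all genes. STAT2, the activator in the ISRE-binding complex, was at 11.3, 11.2 and 11.4 FPKM in OE cells, against 11.0, 10.6 and 11.8 FPKM in Vector cells (log2 change 0.02, 95% interval -0.111 to 0.155). In shGPD1L cells it was at 10.8, 10.9 and 12.0 FPKM, against 10.8, 9.85 and 11.2 FPKM in shNC cells (log2 change 0.07, 95% interval -0.129 to 0.276). Both pairs of groups overlapped. IRF7, which amplifies the induction of type I interferon, was at 38.5, 43.5 and 43.0 FPKM in OE cells, against 37.8, 40.4 and 34.1 FPKM in Vector cells (log2 change 0.15, adjusted p = 0.168). In the knockdown it was at 23.3, 23.6 and 27.6 FPKM in shGPD1L cells, against 24.6, 27.9 and 24.3 FPKM in shNC cells (log2 change -0.04, adjusted p = 0.866). IRF7 overlapped in both comparisons.

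IRF1, which activates both interferon targets and antigen presentation genes, was the factor that fell in OE cells. It was at 6.20, 6.08 and 5.86 FPKM in OE cells, against 7.90, 8.05 and 7.87 FPKM in Vector cells, clearly apart (log2 change -0.34, SE 0.0582, adjusted p = 0.00570). The shGPD1L libraries had it at 7.07, 5.86 and 5.44 FPKM, against 6.23, 5.50 and 6.22 FPKM in shNC cells, with overlap (log2 change 0.02, 95% interval -0.230 to 0.278). IRF1 shares 469 bases of exon with the antisense gene AC116366.3 and 1716 with the antisense gene C5orf56, which has no values here. Whether reads were assigned by strand is not given in the sources used here. The largest overlaps of other members called in OE cells were 2535 bases of XAF1 with the antisense gene PRAL and 356 of IFIT2 with AL353751.1 on its own strand. IRF9, the DNA-binding part of the ISRE complex, was at 3.78, 13.2 and 8.70 FPKM in OE cells, against 6.15, 7.27 and 7.56 FPKM in Vector cells, and at 3.18, 7.72 and 6.80 FPKM in shGPD1L cells, against 3.27, 3.71 and 2.33 FPKM in shNC cells. Neither change passed (log2 change 0.13, adjusted p = 0.804, and 0.69, adjusted p = 0.267). IRF9 shares 1838 exonic bases on its own strand with the listed gene AL136295.5, which was at 10.1, 5.83 and 7.77 FPKM in OE replicates 1 to 3 and at 6.33, 3.51 and 5.90 FPKM in shGPD1L replicates 1 to 3. It was at 8.12, 7.91 and 6.62 FPKM in Vector and at 6.13, 6.31 and 6.47 FPKM in shNC replicates 1 to 3. IRF9 was highest where AL136295.5 was lowest in the OE, shGPD1L and Vector groups but not in the shNC group, and whether reads were divided between the genes was not tested, so the level of IRF9 is uncertain.

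IFI35 (ENSG00000068079, chr17:43006725-43014456, plus strand), a leucine zipper protein that pairs with NMI, was the 1 member called in the knockdown. It was at 11.6, 12.8 and 12.2 FPKM in shGPD1L cells, against 18.4, 18.2 and 19.9 FPKM in shNC cells. The groups stood far apart (means 12.2 ± 0.594 and 18.9 ± 0.946, SD, n = 3 each), and IFI35 changed by -0.59 on the log2 scale (SE 0.0808, adjusted p = 0.0337). The call was lost with quantile normalization, with a replicate block and on leaving out any library other than shGPD1L replicate 3. Those leave-outs left at most 8 of all genes called. Over the alternatives the log2 change of IFI35 ran from -0.62 to -0.55. In OE cells IFI35 was at 22.3, 26.6 and 22.4 FPKM, against 25.4, 28.97 and 24.6 FPKM in Vector cells, with overlap (log2 change -0.14, adjusted p = 0.253). Its partner NMI had log2 changes of -0.47 in shGPD1L (adjusted p = 0.205) and -0.00274 in OE cells (95% interval -0.257 to 0.252). SP110, a nuclear body protein, had log2 changes of -0.31 in shGPD1L and -0.18 in OE cells, with no call.

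The effects of overexpression and knockdown were compared directly as (OE minus Vector) minus (shGPD1L minus shNC) over all 12 libraries. Of 35 members 2 differed, against 14.1% of 11208 genes in either direction. LGALS3BP had a difference of -0.43 (SE 0.0863, adjusted p = 0.00868), from log2 changes of -0.37 in OE and 0.06 in shGPD1L cells. IFI35 had a difference of 0.44 (SE 0.119, adjusted p = 0.0297), from log2 changes of -0.14 in OE and -0.59 in shGPD1L cells. For the other 33 members a difference between the comparisons was not shown, which does not mean that they moved alike. The difference of LGALS3BP was called under 21 of 22 alternatives and lost with a replicate block (adjusted p = 0.053). The difference of IFI35 was called under 14 of 22 alternatives. It was lost with median-of-ratios scaling (adjusted p = 0.0559), with quantile normalization (adjusted p = 0.0551) and on leaving out any of 6 libraries in turn: shGPD1L replicate 1, shNC replicate 1 or 3, OE replicate 2, or Vector replicate 1 or 3. IRF1 was called as differing with median-of-ratios scaling and with quantile normalization, where 12.5% and 11.9% of all genes differed. PLSCR1 was called with equal library totals, where 16.1% did. On leaving out single libraries, between 1 and 7 of the 35 members differed. There were 7 without shGPD1L replicate 3, against 23% of 11198 genes, and 4 without shGPD1L replicate 2, against 15.1% of 11214 genes.

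**Figure D4:**
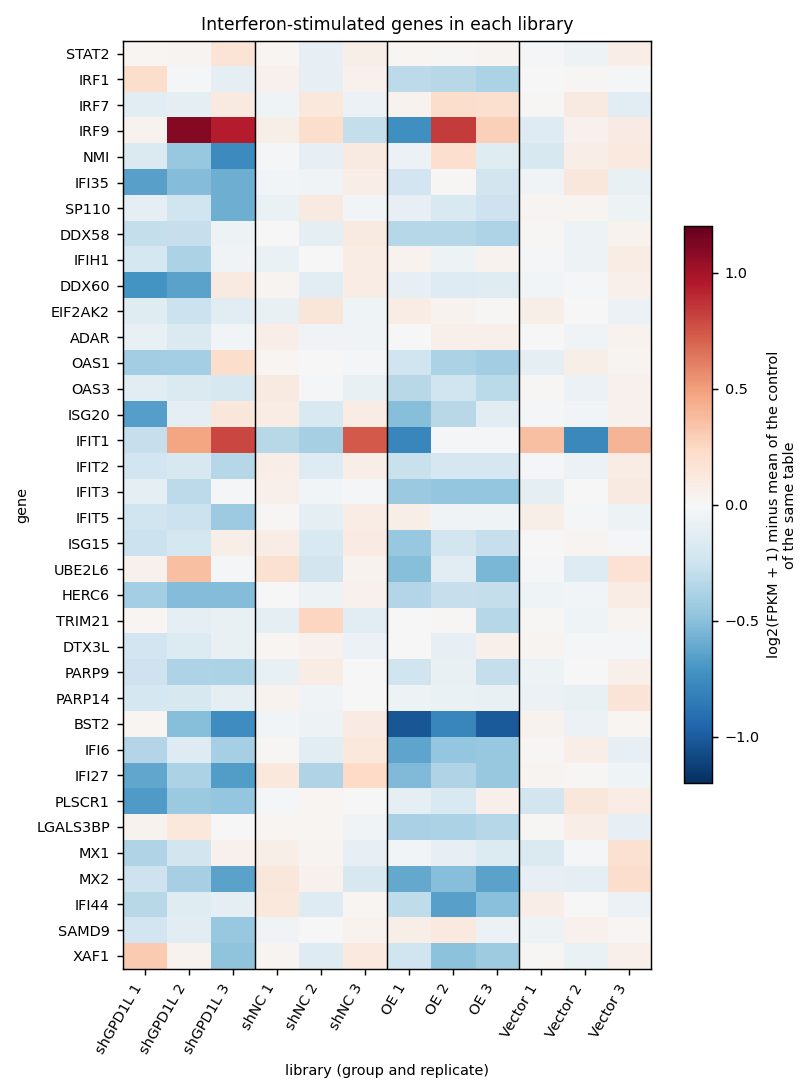
Deviation of each library from the mean of the libraries of its control group in log2(FPKM + 1) for the 36 interferon-stimulated genes (rows, by role), in the shGPD1L, shNC, OE and Vector libraries (columns). The OE columns are below 0 for most genes. In DDX60 and OAS1 shGPD1L replicate 3 is above 0, where shGPD1L replicates 1 and 2 are below 0.

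The values of the members differed between the 2 control groups. A difference between the lines and one between the tables cannot be told apart. Between Vector and shNC cells, set side by side from tables that may have been normalized separately and therefore not tested, 33 of the 35 members were higher in Vector cells, against 48.2% of 11208 genes. In 29 of the 35 every Vector library was above every shNC library, against 27.2% of genes. The median difference of log2(FPKM + 1), Vector minus shNC, was 0.457 in the members and -0.0129 over all genes, and ran from -0.14 for TRIM21 to 2.18 for BST2. BST2 averaged 37.2 ± 1.52 FPKM in Vector and 7.44 ± 0.496 FPKM in shNC cells (SD, n = 3 each).

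Other genes of the pathway were described from lists, to be read against the 22.4% of all genes called in OE cells in either direction. Of the interferons, receptors and kinases, 2 of 12 tested rose in OE cells, JAK1 (log2 change 0.22) and TYK2 (0.16), and 0 fell. In shGPD1L cells 0 of 13 passed, with 2 at an unadjusted p under 0.05, both lower, against 10.3% of all genes lower and 6.04% higher. IFNL1, a type III interferon, was at 4.56, 5.74 and 5.88 FPKM in OE cells, against 5.80, 9.41 and 8.58 FPKM in Vector cells, overlapping at 1 library (log2 change -0.46, adjusted p = 0.0648). The type III interferons IFNL2 and IFNL3 had log2 changes of -0.18 and 0.08 in OE cells, neither called (adjusted p = 0.409 and 0.654). IFNB1, a type I interferon, had values in the knockdown table, at 1.13, 0.928 and 0.745 FPKM in shGPD1L cells, against 2.01, 1.35 and 2.88 FPKM in shNC cells, apart but not called (log2 change -0.64, adjusted p = 0.174).

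Of 12 genes that sense nucleic acids or relay the signal, TBK1, the kinase that activates IRF3, rose in OE cells (log2 change 0.30). The adaptor MYD88 (-0.40) and DHX58 (-0.41), the sensor LGP2, fell there. In shGPD1L cells 0 of 11 passed, and 0 had an unadjusted p under 0.05. Of 9 negative regulators the phosphatases PTPN2 (0.37) and PTPN11 (0.29) rose and IRF2BP2 (-0.18) fell in OE cells. In shGPD1L cells 0 of 9 passed, with 2 at an unadjusted p under 0.05, both lower, against 10.3% of all genes lower and 6.04% higher. USP18, which removes ISG15 and blocks the type I receptor, had log2 changes of -0.21 in OE (adjusted p = 0.0590) and -0.24 in shGPD1L cells (adjusted p = 0.219).

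Of 29 further interferon-induced genes tested, none of them members, 18 fell in OE cells and 1 rose, SP100 (log2 change 0.25), with a median of -0.274. This list too was chosen with earlier results of these data known, so its counts are a description. IFITM1, a membrane protein that hinders viral fusion, was at 30.5, 34.1 and 33.0 FPKM in OE cells, against 63.5, 56.8 and 60.2 FPKM in Vector cells (log2 change -0.87, adjusted p = 0.000179). APOL1 had a log2 change of -0.73 there (adjusted p = 0.00590). In shGPD1L cells 2 of 28 fell, the chemokine genes CXCL11 and CXCL10, with a median of -0.125 over the list, against 0.477% of all genes. Both calls were lost on leaving out any library other than shGPD1L replicate 3 (adjusted p between 0.0663 and 0.197). Each of those fits called at most 8 of all genes. The call of CXCL11 was also lost with quantile normalization (adjusted p = 0.0528). CXCL11 was at 8.77, 7.34 and 9.97 FPKM in shGPD1L cells, against 16.1, 15.6 and 15.4 FPKM in shNC cells (log2 change -0.79, adjusted p = 0.0337), and at 17.5, 19.7 and 17.4 FPKM in OE cells, against 30.5, 30.7 and 31.9 FPKM in Vector cells (log2 change -0.74, adjusted p = 0.000263). CXCL10 fell in both as well, with log2 changes of -0.74 in shGPD1L and -0.32 in OE cells (adjusted p = 0.0337 and 0.0126). By the test of the difference of effects, those on CXCL10 differed by 0.43 (adjusted p = 0.0358), against 14.1% of all genes. For CXCL11 a difference was not shown (0.05, adjusted p = 0.813). Both chemokine genes were thus lower in every shGPD1L and every OE library than in the matching controls.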

How the data were processed

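Poly(A) RNA of 12 SW480 libraries had been sequenced. The authors deposited FPKM in 2 tables, 1 per comparison. The submitters' processing notes name the authors' tools HISAT2, StringTie and DESeq2 and the build GRCh38, with no roles. Since normalization may differ between tables, each comparison was tested within its own. Their filters, strand handling and depth are unknown. Low values were inspected and no common step was seen, so reads were not recovered and no counting interval is given.

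Libraries were grouped by title. The genotype labels count up inside the gene name from replicate to replicate (shGPD1L, shGPD2L, shGPD3L, and likewise for overexpression); this was taken as a slip, which the labels do not settle. Genes averaging 1 FPKM or more across a table's 6 libraries entered the test as log2(FPKM + 1), a scale that understates the change of low genes. An intensity trend was fitted by limma 3.58.1 in R 4.3.3, with Benjamini-Hochberg adjustment over all genes tested, called under 0.05; the fit was tested on simulated data. The difference of effects was fitted with 4 group means. The members and lists were chosen with earlier results of these data known. Every member is named. Values in every library are given for called members, STAT2, IRF1, IRF7, IRF9 and the 5 largest changes of each comparison; of each other list, up to 3 called genes in each direction are named. DDX60, IFIT1, USP18, IFNB1, IFNL1, IFNL2 and IFNL3 were named after their values were seen. A further gene of the pathway is not reported here. Coordinates and overlaps come from GENCODE on GRCh38. Alternatives were other pseudocounts, filters, scalings and variance models, a replicate block and leaving out each library; those for CXCL10 and CXCL11 were chosen after seeing the data. Figures were drawn with matplotlib 3.10.9.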

Additional observations from a re-analysis of the deposited data

Results flagged for a closer look

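Both results were flagged because the effects of overexpression and knockdown differed by a test of the difference itself, (OE minus Vector) minus (shGPD1L minus shNC). Of 35 members 2 differed, a smaller share than the 14.1% of 11208 genes. LGALS3BP, a secreted galectin-binding glycoprotein, had a difference of -0.43 on the log2(FPKM + 1) scale (SE 0.0863, adjusted p = 0.00868). That call was lost with a replicate block (adjusted p = 0.053). IFI35, the partner of NMI, had a difference of 0.44 (SE 0.119, adjusted p = 0.0297), a call that was lost under 8 of 22 alternatives (adjusted p up to 0.0734).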

How the results depend on the processing

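In the overexpression the number of members called, 16, stayed between 14 and 16 under every alternative run, and all were lower. ISG20 was lost under 7 alternatives, XAF1 under 4, ISG15 with quantile normalization (adjusted p = 0.0636) and IFIT2 without OE replicate 1 (adjusted p = 0.0520). In the knockdown the 1 member called became 2 with a filter at 5 FPKM and 0 with quantile normalization. On leaving out 1 library the count was between 0 and 5, with 5 only without shGPD1L replicate 3. Over all genes these calls ran from 0 to 608, with 608 only without that library. For the difference of effects the 2 members called became 3 with equal library totals and between 1 and 7 on leaving out 1 library. The 7 came without shGPD1L replicate 3, where 23% of all genes differed. Replicate numbers did not pair the libraries (same-number correlations -0.0155, -0.18 and -0.163 in the knockdown and 0.0222, -0.0607 and -0.0363 in the overexpression). With a replicate block 0 members were called in the knockdown, 16 in the overexpression and 1 in the difference, where LGALS3BP was lost (adjusted p = 0.0533); IFI35 was the member lost in the knockdown (adjusted p = 0.196). Of 664 alternatives of single genes 626 kept direction and side of the threshold, 29 lost a call, 2 gained one and 7 changed sign, none of these with a call. The sign changes came on leaving out 1 library, over which the log2 changes in shGPD1L cells ranged from -0.0691 to 0.0934 for IRF1 (below 0 without shGPD1L replicate 1 or shNC replicate 2), -0.382 to 0.0150 for ISG20 (above 0 without shGPD1L replicate 1) and -0.120 to 0.0178 for IRF7 (above 0 without shNC replicate 2). In OE cells they ranged from -0.00948 to 0.0633 for STAT2 (below 0 without Vector replicate 2, and -0.0113 with quantile normalization) and from -0.227 to 0.561 for IRF9 (below 0 without OE replicate 2). The cause of these shifts was not tested. Depth is unknown, so its limit on low genes such as MX1, MX2 and XAF1 cannot be given.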

Other observations

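The RNAs of the IFITM proteins, which hinder fusion of viruses with cell membranes, fell in OE cells, and none was called in shGPD1L cells. IFITM3 was at 116, 126 and 128 FPKM in OE cells, against 165, 182 and 170 FPKM in Vector cells, and at 155, 150 and 153 FPKM in shGPD1L cells, against 132, 135 and 116 FPKM in shNC cells. It fell in OE cells (log2 change -0.48, adjusted p = 0.00113) and did not pass in shGPD1L cells (log2 change 0.26, adjusted p = 0.212), and the effects differed by -0.74 (adjusted p = 0.00134). IFITM2 had log2 changes of -0.41 in OE (adjusted p = 0.00162) and 0.21 in shGPD1L cells (adjusted p = 0.357), a difference of -0.62 (adjusted p = 0.00630). IFITM1, lower in both by its estimate, differed by -0.66 (adjusted p = 0.00343). Of all 11208 genes 14.1% differed by this test. The IFITM genes are close relatives, so reads may have been divided between them. These genes were chosen after their values were seen.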
